A study of Mus musculus with 8 samples.

Results

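The genes described are the subunits of the NMDA-type glutamate receptor and 1 delta-type subunit of the same ionotropic family: *Grin1*, *Grin2a*, *Grin2b*, *Grin2c*, *Grin2d*, *Grin3a*, *Grin3b* and *Grid1*. They were taken by gene symbol from the deposited gene table, which holds 8 of these 8 among its 17500 genes, and all 8 passed the filter on low counts that left 16797 genes for testing. Poly(A)-selected RNA of whole retina was sequenced from 4 control mice and 4 Rbfox2 KD mice, 1 library per mouse, all on the C57BL/6J background and 6 months old. The labels attach tamoxifen treatment for 4 months to every sample. The methods describe dosing of the Cre animals on a few consecutive days, with retinas taken 4 months later. There the 4 months are the time since dosing, not its length. The Rbfox2 KD mice are the Rbfox2-/- animals of the study, which are Rbfox2 fl/fl mice with a Cre recombinase that tamoxifen activates and that is not limited to 1 cell type. The controls were heterozygous Rbfox2 fl/+ mice of the same age, and whether they received tamoxifen is stated by the labels but not by the methods. The study asked which retinal genes depend on Rbfox2, an RNA-binding protein of splicing and mRNA stability that is present in horizontal, amacrine and ganglion cells.

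An NMDA receptor is a cation channel that lets calcium into a neuron when glutamate and glycine, or D-serine in its place, bind while the membrane is depolarized. Every such receptor needs the glycine-binding GluN1 subunit, encoded by *Grin1*. The glutamate-binding GluN2 subunits (*Grin2a* to *Grin2d*) set its kinetics, and the glycine-binding GluN3 subunits (*Grin3a*, *Grin3b*) lower its calcium permeability. Delta receptors such as that of *Grid1* have the build of glutamate receptors but act mainly as synaptic adhesion partners of cerebellins and neurexins. In the retina, NMDA receptors are known best from ganglion cells and amacrine cells, which are few beside the photoreceptors, so whole-retina RNA dilutes their transcripts.

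The libraries held 160630226 to 211283591 counts. *Rbfox2* itself, the deleted gene, was present at 53.6 to 59.4 CPM (counts relative to the TMM-scaled library size) in the Rbfox2 KD mice and 144 to 157 CPM in the controls, so each library matched its label. The Rbfox2 KD libraries M901 and M902 stood apart on the first principal component and were the only ones with high *Xist*, at 1440 and 1739 CPM against 1.71 to 2.22 CPM in the other 6, and no control library had it. Results are therefore also given without this pair. Rod markers summed to 61966 to 69893 CPM and cone markers to 848 to 1037 CPM, which matched the tissue label. Nothing states that the animals came from separate litters, and p-values measure the spread between these mice.

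Rbfox proteins bind the RNA letters UGCAUG, written TGCATG in DNA, in introns and 3′ UTRs, so these letters were looked for on the sense strand of the members' 3′ UTRs in GENCODE M21 transcripts (GRCm38, the build that mm10 names). In the transcripts matched to the table's RefSeq accessions, 3′ UTRs of at least 50 bases were found for 13121 of the 16797 genes, and 32.9% held the letters. The matched transcript of *Grin2a* had no 3′ UTR, and of the other members only *Grin2b* had a match, 1 in 2272 bases, where 53.7% of 3′ UTRs of like length (0.8 to 1.25 times) had one. *Grin1* had none in 1187 bases, where 33.9% of like-length 3′ UTRs had one, and *Grin3a* had none in 3615 bases, where 70.7% had one. The longest coding transcripts of *Grin2a* and *Grin2b* carry far longer 3′ UTRs, of 9929 and 18865 bases, with 7 and 8 matches. At the length of *Grin2a*, 97.4% of 78 like-length 3′ UTRs held a match, so its having one sets it apart little. By rate, the long 3′ UTRs held 0.705 matches per kb in *Grin2a* and 0.424 in *Grin2b*. Over the 3′ UTRs of all matched transcripts the rate was 0.361 per kb, and the differences in rate were not tested. The site of *Grin2b* in its matched 3′ UTR and the first sites in the long *Grin2a* 3′ UTR and in the added length of *Grin2b* are shown because these were the 2 members in which the letters occurred. The sequences come from GENCODE M21 and the capitals mark the match.
Grin2b, chr6:135731605-135731634, minus strand: ctgaattcttgcTGCATGgttggcatctgc
Grin2b, chr6:135722502-135722531, minus strand: gtgtcaacaaacTGCATGaagttttccatg
Grin2a, chr16:9577392-9577421, minus strand: agcaatatggtaTGCATGtaagtctgaccc
A match is a description of the letters, not a bound site, and introns were not searched.

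*Grin1* was the most abundant member and the one with the clearest difference between the groups. The obligatory subunit is encoded on the minus strand at chr2:25291181-25319187, a span of 28.0 kb. It lay at 141 CPM in M833, 159 in M894, 156 in M896 and 149.8 in M898 among the controls. In the Rbfox2 KD mice it lay at 127 CPM in M909, 129 in M902 and 139 in both M893 and M901. All 4 Rbfox2 KD values were below all 4 control values, which held in that direction for 3.39% of all genes tested (7.03% in either direction), although M833 lay only just above M893 and M901. The means were 133 ± 6.43 CPM in Rbfox2 KD and 151 ± 7.87 CPM in controls (SD, n = 4), a log2 fold change of -0.18 (SE 0.047, 95% interval -0.29 to -0.078) or a fold of 0.881. The edgeR quasi-likelihood p was 0.00299 and the FDR 0.192, so *Grin1* did not pass a correction over all genes tested.

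Of the 8 members, 0 passed an FDR of 0.05, as did 0.0655% of all genes tested (11 genes). DESeq2 gave *Grin1* an FDR of 0.0279 and called 1 member, where it called 2.74% of all genes. At an unadjusted p under 0.01, which 3.88% of all genes met, 1 member was counted, *Grin1*. At p under 0.05, which 13.3% of all genes met and 6.87% met with lower counts in Rbfox2 KD, 2 members were counted, *Grin1* and *Grin2d*, both lower in Rbfox2 KD. Without M901 and M902 the log2 fold change of *Grin1* was -0.19 with an FDR of 0.715 by the same edgeR test, and 0 members had an unadjusted p under 0.01, which 1.48% of all genes met in that fit. Across 18 alternatives it stayed between -0.22 and -0.16, and its p was above 0.01 without M894, without M896 or without M902, at 0.0102, 0.0107 and 0.0136 in the edgeR fit. On the deposited FPKM, a scale per gene length and library size without TMM factors, *Grin1* was 33.9 ± 1.79 against 39.0 ± 2.46 (SD, n = 4), and there M893 at 35.8 lay above the control M833 at 35.6. An antisense gene, *Grin1os*, shares exon sequence with *Grin1* on the opposite strand, and since the strand setting of the counting is not stated, reads of the pair cannot be told apart. Exons of other genes likewise overlap those of *Grin2b*, *Grin2c*, *Grin2d* and *Grin3b* on the opposite strand and *Grid1* on the same strand. The part of these overlaps in the members' counts was not tested.

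**Figure D1:**
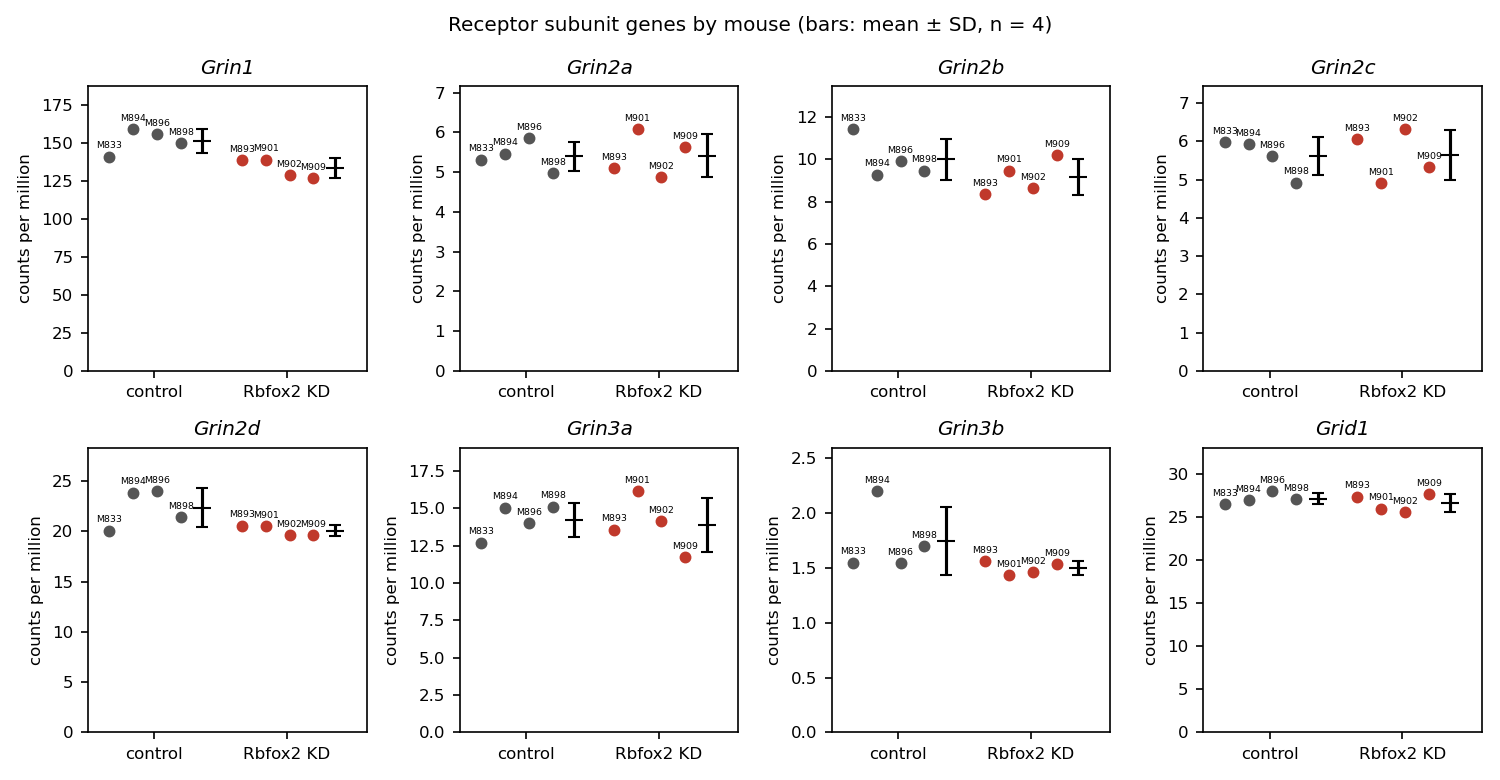
CPM of each of the 8 subunit genes by mouse, controls in grey and Rbfox2 KD in red, with the group mean and SD (n = 4) as black bars and the y axes starting at 0. Only for Grin1 do the groups not overlap, with 127 to 139 CPM in Rbfox2 KD and 141 to 159 CPM in controls.

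Among the GluN2 genes, *Grin2d* was the most abundant and lay lower in Rbfox2 KD. It encodes the subunit whose receptors close most slowly. Its levels were 20.1 CPM in M833, 23.9 in M894, 24.0 in M896 and 21.4 in M898 among the controls, and 19.6 in both M902 and M909, 20.5 in M901 and 20.6 in M893 in Rbfox2 KD. The groups overlapped only through M833, which lay inside the Rbfox2 KD range. The log2 fold change was -0.15 (SE 0.062, 95% interval -0.29 to -0.016), with an unadjusted p of 0.0326 and an FDR of 0.341 in edgeR. Without M833 it was -0.21 with an unadjusted p of 0.00427 and an FDR of 0.138, and without M901 and M902 it was -0.16 with an FDR of 0.880 by the same test.

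The other GluN2 genes overlapped between the groups, and 0 of these 3 had p under 0.05 in edgeR. *Grin2b*, which encodes the subunit that prevails early in development, ranged from 8.35 to 10.2 CPM in Rbfox2 KD and from 9.28 to 11.4 CPM in controls, with a log2 fold change of -0.13 (SE 0.087, FDR = 0.559 in edgeR), and of -0.061 without M833. *Grin2a*, whose subunit prevails in mature forebrain, ranged from 4.87 to 6.07 CPM in Rbfox2 KD and from 4.97 to 5.85 CPM in controls. Its difference was close to 0, with a 95% interval of -0.19 to 0.20 on the log2 scale. *Grin2c*, known best from cerebellar granule cells, ranged from 4.90 to 6.31 CPM in Rbfox2 KD and from 4.92 to 5.98 CPM in controls, with an interval of -0.21 to 0.23. The intervals of *Grin2a* and *Grin2c* leave room for a difference of the size seen for *Grin1* in either direction.

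The GluN3 genes and *Grid1* overlapped between the groups as well. *Grin3a*, the more abundant GluN3 gene, lay at 11.8 to 16.2 CPM in Rbfox2 KD and 12.7 to 15.1 CPM in controls (log2 fold change -0.031, SE 0.095, FDR = 0.921 in edgeR), and without M901 and M902 its log2 fold change was -0.17. *Grin3b*, the lowest of the 8 with 232 to 389 counts per library, lay at 1.43 CPM in M901, 1.46 in M902, 1.53 in M909 and 1.56 in M893, and at 1.54 in M896, 1.55 in M833, 1.70 in M898 and 2.20 in M894. Its log2 fold change of -0.22 was the largest in size of the 8, but its SE was 0.136 and its FDR 0.514 in edgeR, and without M894 it was -0.092. *Grid1* was the steadiest, at 25.6 to 27.6 CPM in Rbfox2 KD and 26.5 to 28.0 CPM in controls, and its interval of -0.12 to 0.067 does not reach the estimate for *Grin1*. Counted by sign, 6 of 8 members had a log2 fold change below 0, as did 49.3% of all genes tested, and the median was -0.079 for the members and 0.0016 for all genes. Without M901 and M902 the members' median was -0.13.

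**Figure D2:**
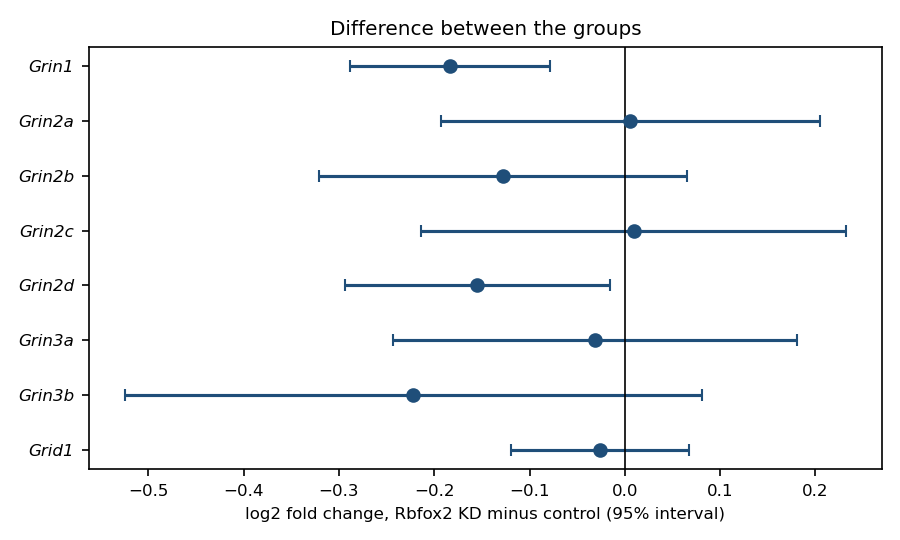
Log2 fold change of each subunit gene, Rbfox2 KD minus control, with its 95% interval from the edgeR fit. The intervals of Grin1 and Grin2d lie below 0, and those of the other 6 genes include 0.

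Read by length, the transcripts formed a steep order. The deposited FPKM averaged 36.5 for *Grin1*, 7.83 for *Grid1*, 4.84 for *Grin2d*, 1.82 for *Grin3a*, 1.28 for *Grin2b*, 1.20 for *Grin2a*, 1.15 for *Grin2c* and 0.496 for *Grin3b* over the 8 mice. *Grin2b*, *Grin2a* and *Grin2c* could not be ordered, since *Grin2b* exceeded *Grin2a* in 6 of 8 mice and *Grin2a* exceeded *Grin2c* in 4 of 8. Every other neighbour in the order was separated in 8 of 8 mice. *Grin1* FPKM was 4.18 ± 0.170 times the summed GluN2 FPKM in Rbfox2 KD and 4.42 ± 0.178 times in controls (SD, n = 4). Within that GluN2 sum *Grin2d* made up 56.2% ± 1.09 in Rbfox2 KD and 58.1% ± 2.79 in controls, with the mouse M833 lowest at 53.9%, and each of the other 3 genes made up between 12.1% and 17.9% in any mouse.

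The order rests on the lengths behind the FPKM. Dividing counts by FPKM gave lengths of 4512 bases for *Grin2a* and 7505 for *Grin2b*, while the union of the GENCODE M21 exons is 17933 and 24842 bases, with the long 3′ UTRs among them. With the union lengths, *Grin1*, *Grid1* and *Grin2d* kept their places. *Grin3a* at 1.15 and *Grin2c* at 1.12 came close together on the same scale, too close to be ordered by their means. *Grin2b* and *Grin2a* came to 0.386 and 0.302, below *Grin3b* at 0.493. Whether fragments in the long 3′ UTRs were counted is not known, so the places of *Grin2a* and *Grin2b* depend on the gene model. The distance between *Grin3a* and *Grin2c* depends on it as well. The shares within the GluN2 sum depend on it too: with the union lengths *Grin2d* made up 62.7% ± 1.40 in Rbfox2 KD and 64.8% ± 2.68 in controls (SD, n = 4), *Grin2c* 20.1% to 26.0%, *Grin2b* 6.85% to 9.27% and *Grin2a* 5.60% to 7.10% in any mouse. *Grin1* was then 2.86 ± 0.120 times the GluN2 sum in Rbfox2 KD and 3.02 ± 0.115 times in controls (SD, n = 4). The fold changes of single genes between the groups do not use these lengths.

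**Figure D3:**
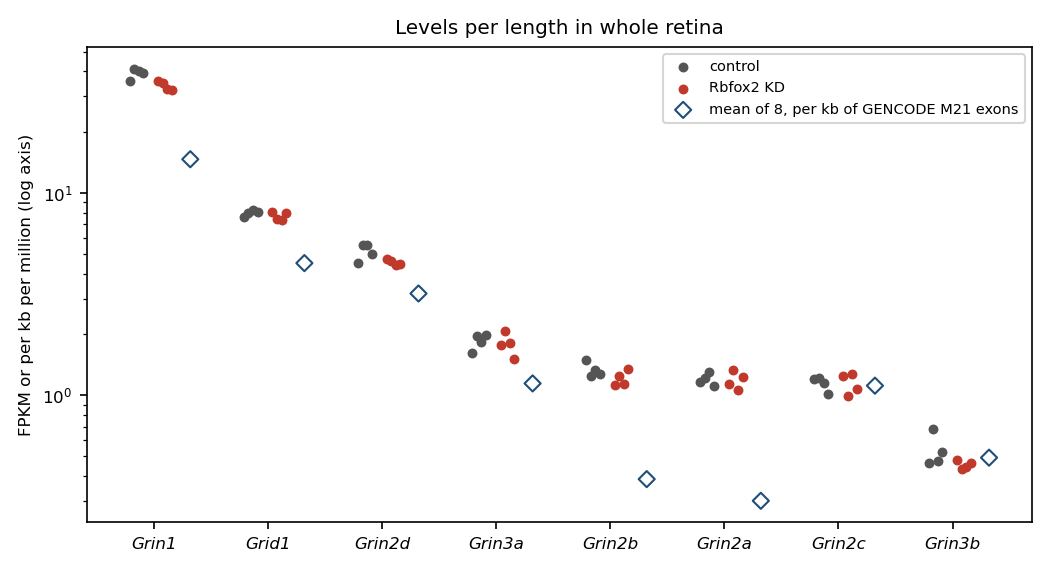
Level per length of each subunit gene on a log axis: deposited FPKM of each control (grey) and Rbfox2 KD (red) mouse, and as open diamonds the mean of 8 mice per kb of GENCODE M21 exons. Grin1 stands at 32.3 to 41.2 FPKM, and Grin2a and Grin2b take lower places than Grin3b when the longer gene models are used.

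Ratios between subunits were compared within each library, where the scaling cancels. The log2 ratio of *Grin2a* to *Grin1* counts was -4.62 ± 0.14 in Rbfox2 KD and -4.81 ± 0.093 in controls (SD, n = 4), a difference of 0.19 (exact permutation test over 70 groupings, two-sided, p = 0.114). It was highest in the Rbfox2 KD mice M901 and M909, at -4.51 and -4.49, while M893 lay among the controls and M902 just above them. The differences were 0.15 for *Grin3a* to *Grin1* (exact p = 0.171; 0.022 without M901 and M902, exact p = 0.733), 0.056 for *Grin2b* to *Grin1* (exact p = 0.629) and -0.13 for *Grin2b* to *Grin2a* (exact p = 0.229; -0.059 without M833). Adjusted over the 4 ratios, p was 0.305, 0.305, 0.629 and 0.305 for these in the order given, starting from *Grin2a* to *Grin1*. With 4 mice against 4 the smallest p possible was 0.0286. Without M901 and M902 no p under 0.05 was possible in this test.

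The 5 genes whose profile over the 8 mice was most like that of *Grin1*, by the root mean square difference of centred log2 CPM, were *Relt*, a receptor of the tumour necrosis factor family (0.028), *Tro*, which encodes trophinin (0.035), *Usp13*, a deubiquitinase (0.038), *Slc36a4*, an amino acid transporter (0.039), and *Jazf1*, a zinc finger gene (0.040). Of the other members *Grin2d* was the most like, at 0.043 and place 9 of 16796 genes, while *Grid1* came at place 1901 and *Grin2b* at place 9191. *Grin1* and *Grin2d* shared a low M833 among the controls and low M902 and M909 among the Rbfox2 KD mice.

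M833 and M909 also had the least RNA of ganglion cell markers. The 11 markers, which include *Rbpms*, *Pou4f1*, *Slc17a6* and the neurofilament genes, summed to 810 CPM in M833 and 1254, 1283 and 1302 CPM in the other controls. In Rbfox2 KD they summed to 1003 CPM in M909, 1164 in M902, 1272 in M893 and 1330 in M901. The groups overlapped widely, 0 of the 11 markers had p under 0.05 in edgeR, and in bulk RNA fewer cells of a type and less RNA per cell cannot be told apart. Amacrine markers, 11 in all with none at 0, summed to 1210 to 1280 CPM in Rbfox2 KD and 1219 to 1315 CPM in controls. Horizontal cell markers did not overlap, with 223 to 235 CPM in Rbfox2 KD and 236 to 265 CPM in controls over 5 markers, of which *Calb1* fell (log2 fold change -0.40, FDR = 0.00341 in edgeR), from a mean of 76.2 to 57.9 CPM. The log2 fold changes of the other 4 were -0.20 for *Onecut2*, -0.13 for *Onecut1*, -0.062 for *Prox1* and 0.18 for *Lhx1*, none past an FDR of 0.05. Bipolar markers, 8 in all, summed to 1528 to 1609 CPM in Rbfox2 KD and 1596 to 1714 CPM in controls. Of these, 7 had a log2 fold change below 0, and *Grm6* had 0.19. At p under 0.01 in edgeR there were 3, where 1.93% of all genes were lower at that p. These were *Isl1* (-0.19), *Pcp2* (-0.18) and *Cabp5* (-0.14), none past an FDR of 0.05. Rod markers spanned 64304 to 69893 CPM in Rbfox2 KD and 61966 to 66660 CPM in controls. Cone markers did not overlap, at 911 to 1037 CPM in Rbfox2 KD and 848 to 864 CPM in controls, but they did not all move the same way. *Opn1mw* had a log2 fold change of -0.23. The others had 0.26 for *Opn1sw*, 0.26 for *Gngt2*, 0.20 for *Arr3*, 0.066 for *Pde6h* and 0.047 for *Gnat2*. None passed an FDR of 0.05, and *Opn1sw* was the largest part of the sum, at means of 426 and 354 CPM. Ciliary epithelium markers did not overlap either, with 197 to 224 CPM in Rbfox2 KD and 230 to 308 CPM in controls over 5 markers. Most of that sum was *Aqp1*, at means of 179 and 187 CPM (log2 fold change -0.063). The log2 fold changes of the other 4 were -2.02 for *Best2*, -1.24 for *Cldn2*, -1.01 for *Slc4a4* and -0.98 for *Slc13a4*, none past an FDR of 0.05. Müller glia markers spanned 4544 to 5061 and 5038 to 5532 CPM and vessel markers 53.6 to 69.5 and 65.7 to 82.0 CPM. The part of these shifts in the difference of *Grin1* was not tested.

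Each member was then set against the ganglion cell marker sum across the 8 mice, a comparison chosen after the values were seen, and the pooled r was largest in size for *Grin3a*. It was lowest in M909 at 11.8 CPM and M833 at 12.7 CPM and highest in M901 at 16.2 CPM, the mouse with the highest marker sum. Pearson's r was 0.77 (exact permutation p = 0.0313, adjusted over 8 members 0.240) and Spearman's rho 0.79 (exact p = 0.0279, adjusted 0.223), so the relation failed the correction. Without M833 and M909, the mice farthest from the median, r was 0.53, and the relation rested largely on these. *Grin2b* ran the other way, highest in M833 at 11.4 CPM and M909 at 10.2 CPM (r = -0.75, exact p = 0.0600, adjusted 0.240; rho = -0.31, exact p = 0.462, adjusted 0.668), and without the same pair its r was 0.55, so it too rested on them. For *Grin1* the pooled r was 0.41 (exact p = 0.308, adjusted 0.617) and rho 0.33 (exact p = 0.428, adjusted 0.668), which mixes in the group difference. With both measures centred on their group means, r was 0.86 for *Grin1* (exact permutation within groups, p = 0.0260, adjusted over 8 members 0.104), 0.79 for *Grin3a* (exact p = 0.0156, adjusted 0.104), 0.73 for *Grin2d* (exact p = 0.0538, adjusted 0.139) and -0.81 for *Grin2b* (exact p = 0.0694, adjusted 0.139). Within the Rbfox2 KD group the mice had the same order by *Grin1* as by the marker sum, and among the controls M833 was lowest in both. The other controls ran in the opposite order. M894, M896 and M898 had *Grin1* at 159, 156 and 149.8 CPM and marker sums of 1254, 1283 and 1302 CPM. Without M833 and M909 the centred r was 0.55 for *Grin1*, 0.54 for *Grin3a*, 0.10 for *Grin2d* and 0.55 for *Grin2b*, so these relations too rested largely on that pair, and none passed the correction.

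**Figure D4:**
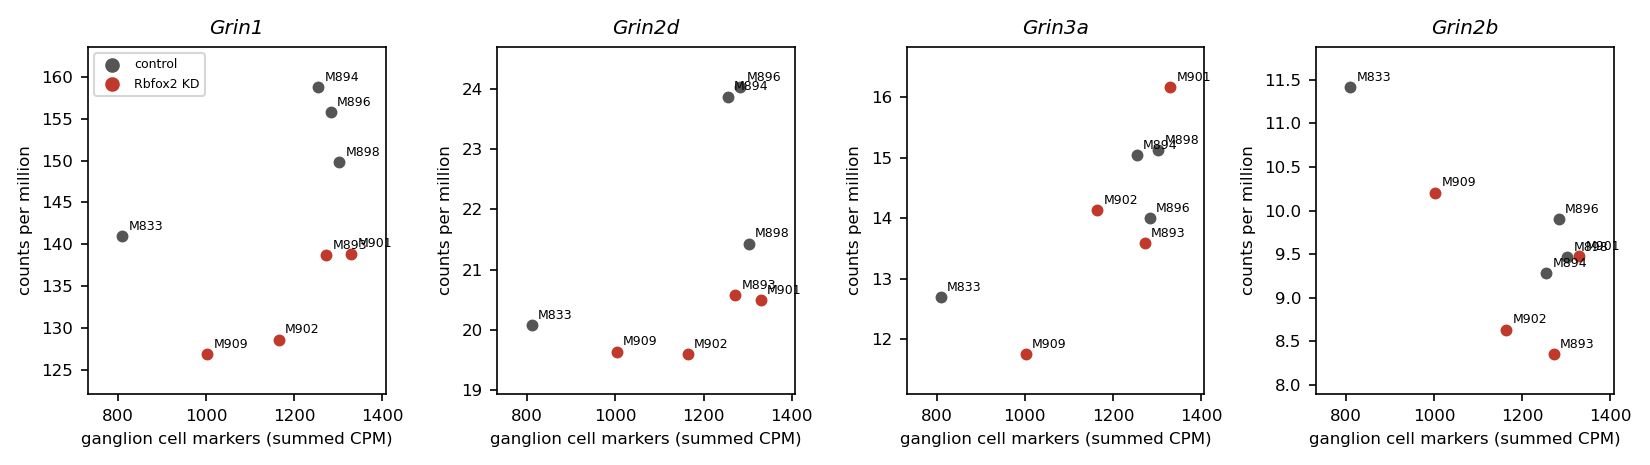
CPM of Grin1, Grin2d, Grin3a and Grin2b by mouse against the summed CPM of 11 ganglion cell markers, controls in grey and Rbfox2 KD in red. M833 (810 CPM of markers) and M909 (1003 CPM) are lowest in markers and hold the lowest Grin3a and the highest Grin2b values.

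Around the receptor, the genes of calcium signalling downstream of it lay mostly lower in Rbfox2 KD, without passing the correction. Of 15 genes, 13 had a log2 fold change below 0, as did 49.3% of all genes tested, with a median of -0.067 for the list. At p under 0.01 in edgeR there were 3, all lower, where 1.93% of all genes were lower at that p. *Camk2b*, a subunit of the calcium-dependent kinase CaMKII that binds the receptor, lay at 190 to 204 CPM in Rbfox2 KD and 213 to 218 CPM in controls (log2 fold change -0.12, SE 0.032, FDR = 0.192 in edgeR). *Camk2a*, the other main neuronal subunit, lay at 55.3 to 59.3 CPM and 59.2 to 72.9 CPM (log2 fold change -0.22, SE 0.059), where the highest Rbfox2 KD mouse, M901, just overlapped M833. *Nos1ap*, an adaptor of neuronal nitric oxide synthase, lay at 10.7 to 12.4 CPM and 12.6 to 13.9 CPM (log2 fold change -0.22, SE 0.067). Without M901 and M902, in a fit of fewer mice where 1.48% of all genes met it, 0 of these 15 had p under 0.01. There *Camk2b*, *Camk2a* and *Nos1ap* had edgeR p of 0.0307, 0.0148 and 0.103. Their log2 fold changes in that fit were -0.11, -0.25 and -0.13. Without M833 the count was again 3, and *Camk2a* reached an FDR of 0.0446 in edgeR, with a log2 fold change of -0.28, in a fit that called 35 genes at that FDR instead of 11 and had 5.83% of all genes at p under 0.01.

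Of 7 partners of delta receptors, 6 had a log2 fold change below 0, as did 49.3% of all genes tested. Their median was -0.098, and 0 had p under 0.01, which 3.88% of all genes met. *Cbln1*, the cerebellin that bridges neurexins to delta receptors, had the lowest p, at 13.9 to 15.1 CPM in Rbfox2 KD and 15.6 to 16.8 CPM in controls (log2 fold change -0.15, SE 0.049, FDR = 0.275 in edgeR). The groups did not overlap for *Cbln1*, nor for 7.03% of all genes tested, while they did for its receptor gene *Grid1*.

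Of the other ionotropic glutamate receptors, those of AMPA and kainate type, 9 genes were tested. Of these, 4 were below 0 with a median of 0.0015, and 0 had p under 0.05. The lowest p was that of *Gria3*, an AMPA receptor subunit, at 44.6 to 49.5 CPM in Rbfox2 KD and 49.2 to 51.3 CPM in controls. Among the 8 metabotropic receptors 2 had p under 0.01, in opposite directions, where 3.88% of all genes tested met that p. *Grm5*, a receptor that couples to Gq and potentiates NMDA receptors, lay at 29.5 to 30.7 CPM in Rbfox2 KD and 31.5 to 36.8 CPM in controls (log2 fold change -0.21, SE 0.051, FDR = 0.178 in edgeR). *Grm8*, a presynaptic receptor of the group that inhibits adenylyl cyclase, lay at 38.9 to 42.4 CPM and 34.2 to 37.1 CPM (log2 fold change 0.18, SE 0.045, FDR = 0.179 in edgeR). Both kept p under 0.01 without M901 and M902, at 0.00698 and 0.00869 in edgeR.

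The scaffold that anchors NMDA receptors showed higher values for its best known member. *Dlg4*, which encodes PSD-95 and is also abundant in photoreceptor terminals, lay at 749 to 830 CPM in Rbfox2 KD and 622 to 739 CPM in controls (log2 fold change 0.20, SE 0.060, FDR = 0.239 in edgeR). *Dlg1*, which encodes SAP97, lay at 152 to 177 CPM and 147 to 157 CPM, where M893 overlapped the controls. These were the 2 of 15 scaffold genes with p under 0.01, which 3.88% of all genes tested met. Of the 15, 9 were below 0, with a median of -0.013. Without M901 and M902, *Dlg4* had a log2 fold change of 0.20 and *Dlg1* of 0.096, with p of 0.0306 and 0.117 in edgeR.

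Of 11 genes of glycine and D-serine supply, 3 had p under 0.01 in edgeR, which 3.88% of all genes tested met. *Srr*, serine racemase, which makes the co-agonist D-serine, lay at 62.0 to 64.4 CPM in Rbfox2 KD and 55.8 to 58.6 CPM in controls (log2 fold change 0.12, SE 0.033, FDR = 0.217 in edgeR). *Shmt2*, the mitochondrial serine hydroxymethyltransferase that interconverts serine and glycine, lay at 39.4 to 43.8 CPM and 34.6 to 37.6 CPM (log2 fold change 0.19, SE 0.048, FDR = 0.181). *Shmt1*, its cytosolic counterpart, was lower, at 0.44 to 0.66 CPM and 0.74 to 1.46 CPM (log2 fold change -0.90, SE 0.24, FDR = 0.207). Of the 3, without M901 and M902, *Shmt2* alone kept p under 0.01, at 0.00824 in edgeR. In that fit the log2 fold changes were 0.20 for *Shmt2*, 0.10 for *Srr* and -0.77 for *Shmt1*. The list had 4 of 11 genes below 0 and a median of 0.017. In the full edgeR fit it had 3 genes lower and 2 higher at p under 0.05, which 13.3% of all genes met. The groups did not overlap for 3 lower and 2 higher genes of the list, and for 7.03% of all genes.

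Kinases and phosphatases that act on the receptor had 9 of 15 genes below 0. At p under 0.01, which 3.88% of all genes tested met, there was 1, *Ptk2b*, the kinase Pyk2. It lay at 3.53 to 5.69 CPM in Rbfox2 KD and 5.51 to 9.04 CPM in controls (log2 fold change -0.63, SE 0.19, FDR = 0.242 in edgeR). The mice M893 and M833 overlapped, and without M901 and M902 its log2 fold change was -0.37, with an edgeR p of 0.0870. Of 13 trafficking and auxiliary genes 0 had p under 0.01. The lowest p was that of *Cask*, a scaffold kinase that takes part in receptor transport. It lay at 89.9 to 98.3 CPM in Rbfox2 KD and 98.9 to 100.4 CPM in controls, where the groups did not overlap. In this list 2 genes did not overlap in the other direction, higher in Rbfox2 KD, and 7.03% of all genes tested did not overlap.

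**Figure D5:**
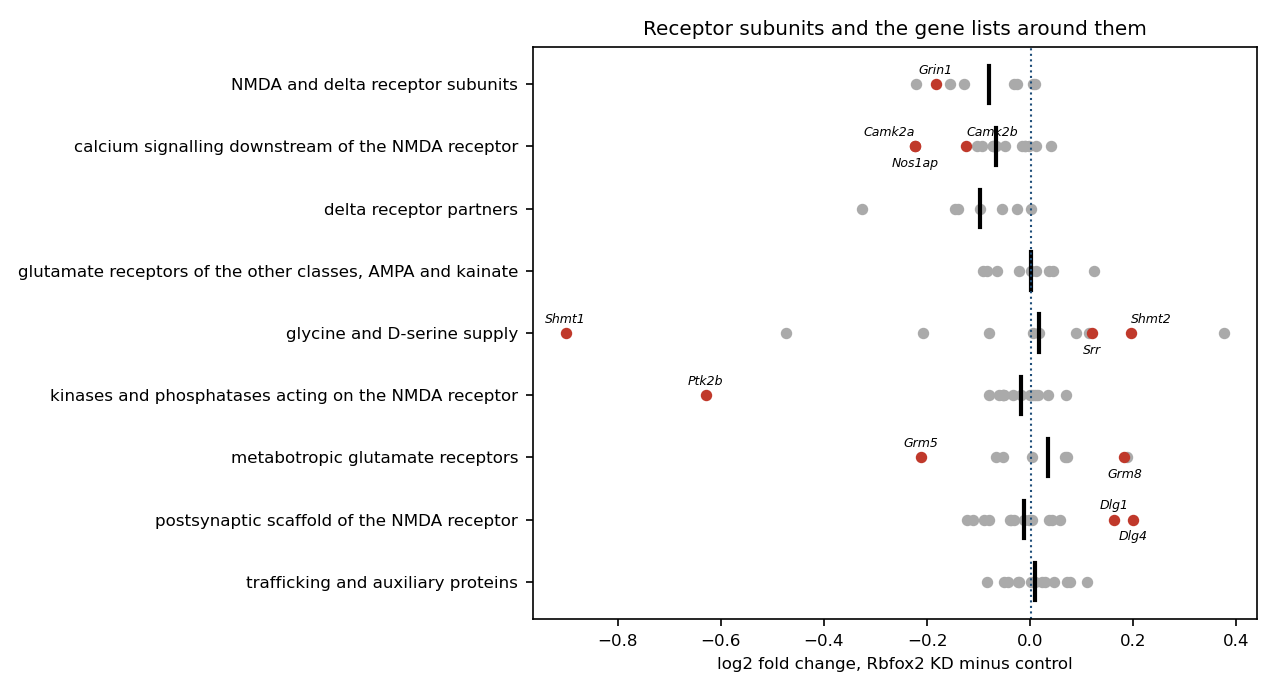
Log2 fold change, Rbfox2 KD minus control, of the receptor subunits and of the genes of 8 lists around them, with genes of p under 0.01 in red and named, the median of each row as a black bar and the median of all genes tested as a dotted line. The subunit row has its median at -0.079 and the AMPA and kainate row at 0.0015.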

How the data were processed

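Whole-retina RNA of 8 mice was measured, 1 library each. The authors aligned paired reads to mm10 with STAR, kept uniquely mapped reads and deposited raw fragment counts per gene from HTSeq, for which a RefSeq and an Ensembl annotation are both named. The submitters' processing notes name CASAVA 1.8.2, edgeR, mm10 and GRCm38. The authors also deposited FPKM values, used here only for levels between genes, shares and an alternative. The table's columns of the authors' own comparison (fold changes, p-values) and 16 further per-sample columns were not used. Groups came from the labels.

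Genes were filtered with filterByExpr, and TMM-scaled counts went into the quasi-likelihood test of edgeR 4.0.16 (R 4.3.3), 4 Rbfox2 KD against 4 control, without covariates, with Benjamini-Hochberg adjustment over 16797 genes. Standard errors were derived from the fold change and the F statistic. Log2 CPM used a prior count of 2. Ratios and correlations were tested by exact permutation. Alternatives included the likelihood ratio test, limma 3.58.1 (voom and trend), DESeq2 1.42.0, other scalings and filters, a surrogate variable (sva 3.50.0) and left-out mice. The procedure was tested on simulated data.

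The members and gene lists were chosen with earlier results of these data known, so lists are described by counts and medians without a test of their own. Named besides the members are *Rbfox2*, *Xist*, the 5 genes most like *Grin1*, markers that move with a member or check the tissue, and in each list the genes with p under 0.01 or else the lowest p. Gene-level counts do not show exon use, such as the alternative exons of *Grin1*. The depth of 160630226 to 211283591 counts per library put 3 counts at about 0.014 to 0.019 CPM, far under every member.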

Additional observations from a re-analysis of the deposited data

How the results depend on the processing

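DESeq2 called 1 member at an FDR of 0.05, *Grin1* at 0.0279, and the other 17 alternatives called 0. At p under 0.01 the count was 0 without M901 and M902 and 0 with 1 surrogate variable, and leaving out 1 mouse at a time gave 0 to 2 (2 without M833; 0 without M894, M896 or M902). The share of all genes at that p moved as well, from 3.88% to 1.48% without M901 and M902, 1.73% with the surrogate variable, 5.83% without M833, 3.52% without M894, 2.10% without M896 and 2.66% without M902. *Grin1*, *Grin2b*, *Grin2d* and *Grin3b* kept their sign in all 18 alternatives. The log2 fold change of *Grin2a* turned to -0.00053 with upper-quartile scaling, -0.012 without M901 and M902 and -0.027 with the surrogate variable, and ranged from -0.055 to 0.052 with 1 mouse left out. That of *Grin2c* turned to -0.0037 with limma-voom and -0.0068 with the surrogate variable, and ranged from -0.049 to 0.071. *Grin3a* ranged from -0.11 to 0.042 with 1 mouse left out, being 0.00011 without M898, and was -0.17 without M901 and M902 and -0.13 with the surrogate variable. *Grin2b* ranged from -0.18 to -0.061 with 1 mouse left out. The members' median was -0.13 without M901 and M902, without M901 alone or with the surrogate variable. *Grid1* turned to 0.017 without M901 and M902 and 0.019 with the surrogate variable. With 1 mouse left out, the log2 ratio difference ranged from 0.14 to 0.23 for *Grin2a* to *Grin1*. Without M893 its exact permutation p was 0.0286, the smallest possible with that mouse left out. The difference ranged from -0.021 to 0.15 for *Grin2b* to *Grin1*, from 0.091 to 0.20 for *Grin3a* to *Grin1* and from -0.17 to -0.059 for *Grin2b* to *Grin2a*. The cause of these turns was not tested.

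Added checks, chosen after seeing the data, recounted the lists without M901 and M902 and without M833. Without M901 and M902 the genes with p under 0.01 numbered 0 of 15 for the scaffold, 1 of 11 for glycine and D-serine supply, 0 of 15 for kinases and phosphatases and 0 of 15 for calcium signalling. In that fit 1.48% of all genes met that p. The correlation of *Grin2b* with the ganglion cell markers turned to 0.55 without M833 and M909. No paired analysis was possible because the mouse names do not pair the groups. No member's values in a group of 4 had a sample set apart from the other 3 by more than Dixon's critical value.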
